A study of Mus musculus with 12 samples.

Results

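The subunits of the NMDA-type glutamate receptor are encoded in the mouse by a small gene family, and 6 of its genes are described here: Grin1, Grin2a, Grin2b, Grin2c, Grin2d and Grin3a. They were taken by symbol from the table of gene counts and its RPKM counterpart (read counts scaled by gene length and library size), where they are 6 of 41388 rows, and all 6 were among the 17441 genes tested. Both tables hold 12 libraries of poly(A) RNA, 1 per animal, from cortical brain of adult mice on a C57Bl/6 background. The mutant groups were a knock-in with the genotype Grin1-exon5+/+, in which exon 5 of Grin1 is constitutive (KI, 3 libraries), and a knockout with the genotype Grin1-exon5-/-, which lacks that exon (KO, 3 libraries). Each line had its own wild-type animals, KI_WT and KO_WT, with 3 libraries each. The labels state neither the sex of the animals nor a dissection boundary within the cortex. Bulk RNA of cortex mixes neurons with glia and vessels, so that fewer cells of a type and less RNA per cell cannot be told apart.

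An NMDA receptor is a tetramer that opens when glutamate and a co-agonist bind together and the membrane is depolarised, and it admits calcium at excitatory synapses. GluN1, from Grin1, is the obligatory subunit and carries the site for glycine or D-serine, whereas the GluN2 subunits carry the glutamate site and set the kinetics, and GluN3A replaces a GluN2 subunit in receptors of low calcium permeability. In the forebrain GluN2B prevails around birth and GluN2A is added as synapses mature. Exon 5 encodes the N1 cassette in the amino-terminal domain of GluN1, which changes the receptor's sensitivity to protons, zinc and polyamines.

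The cassette is the segment that the mutations fix, and it is therefore shown in the 2 forms of the transcript that the wild types can make, as annotated by GENCODE M21 on GRCm38 (chr2:25311343-25311405, minus strand). It has 63 bases, or 21 codons, with a GC content of 44.4%, and it is part of 4 of the 8 annotated coding transcripts of Grin1. Capitals mark the cassette in the first sequence and the bases that become neighbours in its absence in the second, with 30 bases of the flanking exons on each side.
Grin1-204, with exon 5: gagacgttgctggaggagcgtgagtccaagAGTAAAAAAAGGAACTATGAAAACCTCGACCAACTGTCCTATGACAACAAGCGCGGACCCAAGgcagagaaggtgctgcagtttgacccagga
Grin1-201, without exon 5: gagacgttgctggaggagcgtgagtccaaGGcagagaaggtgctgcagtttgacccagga
The counts are sums over whole genes, so they hold no reading of this cassette and do not test the genotype labels.

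The libraries held 31790970 to 36514024 counts in 21927 to 22809 detected genes. Within a group no library was a copy of another, since the variance between any pair was 14.9 to 81.7 times that of sampling. Pairs from different groups were not examined in this way. All 10 markers of cortical excitatory neurons were detected in every library, with a summed level of 1429 to 2196 CPM (counts scaled to library size, here after TMM normalisation). Transcripts of neighbouring tissue varied between libraries, with 324 to 2995 CPM for 10 choroid plexus markers and 147 to 467 CPM for 10 thalamus markers. The library KO 1 stood apart from the other 11 in the level of long genes, as given below beside the genes that this touches. Animal numbers fall into a low and a high range, with KO 1, KO_WT 2 and KO_WT 3 in the low one.

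No subunit gene passed the test in either mutant, and the 2 genes with the widest estimates were Grin2a and Grin2b, both lower in every KO library than in every KO_WT library. Differences were tested with edgeR's quasi-likelihood test on the counts of all 17441 genes, with Benjamini-Hochberg adjustment over all of them and a threshold of 0.05. In KI over KI_WT 0 of 6 subunit genes were called, against 0 of all genes (0%), and in KO over KO_WT 0 of 6 against 1 gene (0.00573%). At an unadjusted p under 0.05 there were 0 of 6 in KI over KI_WT, where 6.96% of all genes lay under it. In KO over KO_WT there was 1 of 6, Grin2b, where 7.22% of all genes lay under it. DESeq2, limma voom and limma on RPKM values also called 0 of 6 in both comparisons.

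**Figure D1:**
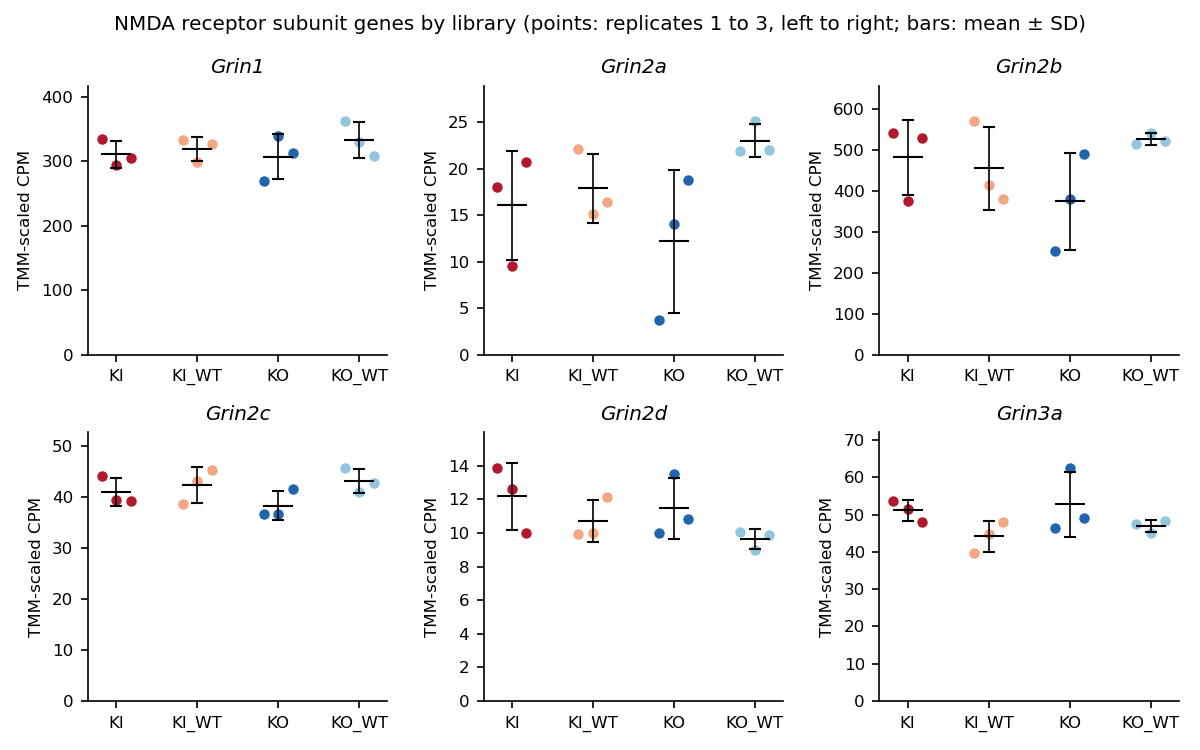
TMM-scaled CPM of each subunit gene in every library, in panels by gene, with the 3 replicates of a group from left to right and bars for the mean ± SD. Grin2a and Grin2b spread widely within KI, KI_WT and KO, with KO 1 lowest, while Grin1 and Grin2c stay within narrow ranges.

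Grin1 (ENSMUSG00000026959; GRCm38 chr2:25291181-25319187, minus strand), the gene that carries the mutations, was expressed at similar levels in the 4 groups. Its TMM-scaled level was 334, 294 and 305 CPM in KI 1 to 3, against 333, 299 and 327 CPM in KI_WT 1 to 3. It was 269, 340.1 and 313 CPM in KO 1 to 3, against 363, 329 and 308 CPM in KO_WT 1 to 3. The mutant and wild-type libraries overlapped in both lines, with KO 1 the lowest library and KO_WT 1 the highest. The log2 fold change was -0.04 in KI over KI_WT (95% interval -0.26 to 0.18, adjusted p = 0.953) and -0.12 in KO over KO_WT (-0.33 to 0.10, adjusted p = 0.771). The value in KO over KO_WT was -0.03 without KO 1 and -0.19 without KO 2. An antisense gene, Grin1os, shares 1307 exonic bases with Grin1, and the strand setting of the counting is not given in the sources used here. Grin1os held 216 to 591 counts, which is 2.09% to 5.20% of the Grin1 count of the same library.

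Grin2a (ENSMUSG00000059003; chr16:9567898-9995560, minus strand), which encodes the GluN2A subunit of mature synapses, was the most variable of the 6 genes. Its level was 3.75, 14.03 and 18.8 CPM in KO 1 to 3, against 22.0, 25.2 and 22.1 CPM in KO_WT 1 to 3. All 3 KO libraries lay below the 3 KO_WT libraries, and KO 1, with 137 counts (exact Poisson 95% interval 115 to 162, which covers counting error only), was far below every other library. The log2 fold change was -0.92 (SE 0.43) with a 95% interval of -1.86 to 0.02, and it did not pass the test (adjusted p = 0.678). Without KO 1 it was -0.49, and without KO 3 it was -1.37. In the knock-in line Grin2a stood at 17.996, 9.50 and 20.8 CPM in KI 1 to 3, against 22.1, 15.2 and 16.4 CPM in KI_WT 1 to 3. These groups overlapped, with KI 2 the low library, and the log2 fold change was -0.15 (SE 0.43, adjusted p = 0.958). It was 0.12 without KI 2.

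Grin2b (ENSMUSG00000030209; chr6:135713233-136173511, minus strand) encodes GluN2B, the subunit that binds the kinase CaMKII. Its level was 253, 382 and 490.1 CPM in KO 1 to 3, against 515, 543 and 524 CPM in KO_WT 1 to 3. The KO libraries again all lay below the KO_WT libraries, and the KO_WT libraries were close together while the KO libraries were not. The log2 fold change was -0.49 (SE 0.22) with a 95% interval of -0.97 to -0.01, and it did not pass either (adjusted p = 0.678). It was -0.27 without KO 1 and -0.73 without KO 3. In the knock-in line Grin2b stood at 541, 376 and 531 CPM in KI 1 to 3, against 571, 415 and 381 CPM in KI_WT 1 to 3. High and low libraries occurred in both of these groups, and the log2 fold change was 0.08 (SE 0.22, adjusted p = 0.956).

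Of the 6 genes 2, Grin2a and Grin2b, did not overlap between KO and KO_WT, and 12.4% of all genes did so, 6.4% of all genes with KO below. Since the libraries did not overlap, the same order was bound to appear within both ranges of animal number and is no separate support. In the low range Grin2b was at 253 CPM in KO 1, against 543 and 524 CPM in KO_WT 2 and 3, and in the high range it was at 382 and 490.1 CPM in KO 2 and 3, against 515 CPM in KO_WT 1. Grin2a was at 3.75 CPM in KO 1, against 25.2 and 22.1 CPM in KO_WT 2 and 3, and at 14.03 and 18.8 CPM in KO 2 and 3, against 22.0 CPM in KO_WT 1. With a term for the range the log2 fold changes were -1.46 for Grin2a and -0.66 for Grin2b, with an adjusted p of 0.409 for both. The summed level of 4 Y-linked genes was 0.110 and 0.120 CPM in KO 1 and KO 2, but 198 CPM in KO 3 and 191 to 220 CPM in KO_WT. As a term in the edgeR model, Y-linked expression had a coefficient over its range of 0.28 for Grin2a (SE 0.38) and 0.11 for Grin2b (SE 0.20). Neither coefficient passed (adjusted p = 0.99998 for both). No KO_WT library had a low Y-linked level, so within the knockout line this term and the genotype cannot be fully told apart. Several marker lists were also lower in KO than in KO_WT. The 10 astrocyte markers summed to 5333 to 7584 CPM in KO, against 7766 to 8382 CPM in KO_WT, and 8 of 10 had a lower mean. The 8 markers of oligodendrocyte precursors summed to 291 to 356 CPM in KO, against 357.8 to 396 CPM in KO_WT, and 8 of 8 had a lower mean. The microglia markers summed to 463 to 482 CPM in KO, against 504 to 565 CPM in KO_WT, and the endothelium markers to 359.8 to 466 CPM in KO, against 472 to 507 CPM in KO_WT, each with 9 of 10 means lower. Lower means were also found for 10 of 10 oligodendrocyte markers (median log2 fold change -0.39) and 9 of 9 tested striatum markers (-0.38), and higher means for 10 of 10 thalamus (0.53) and 10 of 10 choroid plexus markers (0.85), with overlap in the summed levels of these 4 lists. The 10 excitatory neuron markers overlapped as well, at 1429 to 2196 CPM in KO, against 1754 to 2137 CPM in KO_WT. Between the wild types, in KI_WT over KO_WT, means were lower for 10 of 10 astrocyte and 8 of 8 oligodendrocyte precursor markers. They were lower there for 9 of 10 microglia, 9 of 10 oligodendrocyte and 9 of 9 tested striatum markers. The counts were 6 of 10 lower for endothelium, 7 of 10 lower for thalamus and 10 of 10 higher for choroid plexus markers. The part of these cell types and tissues in the values of Grin2a and Grin2b was not tested.

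**Figure D2:**
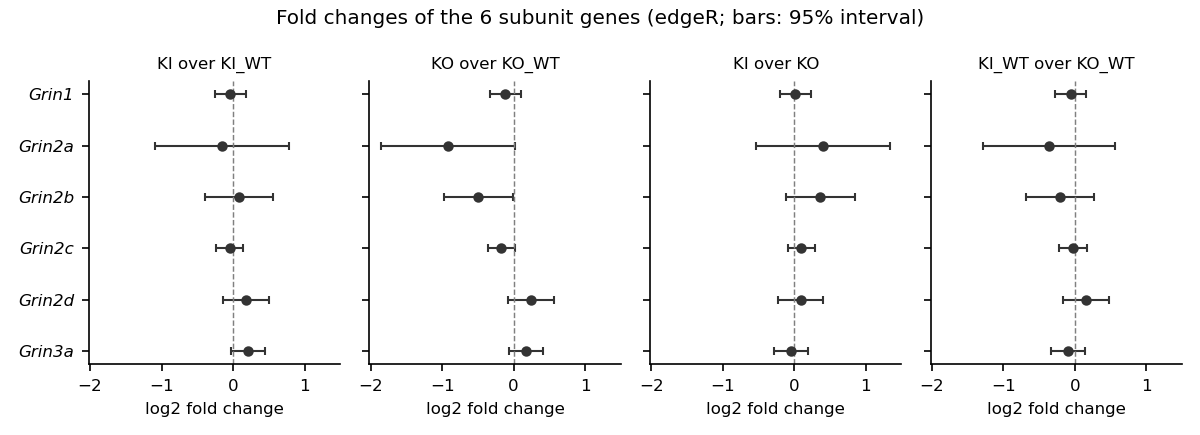
Log2 fold changes of the 6 genes from edgeR in the comparisons KI over KI_WT, KO over KO_WT, KI over KO and KI_WT over KO_WT, with points for the estimate and bars for the 95% interval. The intervals of Grin2a are the widest, and the interval of Grin2b in KO over KO_WT, from -0.97 to -0.01, is the single one that does not include 0.

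Levels of Grin2a and Grin2b moved with those of genes with long gene models, a relation examined after the data were seen. Grin2b itself has such a model, while that of Grin2a in the deposited table is shorter (5296 bases). For each library the median deviation from the gene's mean over the 12 libraries was taken over 829 genes with a gene model of at least 10 kb and a mean of at least 5 CPM, without the subunit genes. This median was -0.22 on the log2 scale in KO 1, and it lay between -0.09 in KI 2 and 0.08 in the other 11 libraries. Genes with models under 2 kb (1757 genes) went the other way in KO 1, at 0.13, and lay between -0.06 and 0.06 in the other 11. Across the 12 libraries the log2 level of Grin2a followed the median of the long models with Pearson's r = 0.948 and Spearman's rho = 0.909 (permutation test, adjusted p = 1.2e-04 for r over 12 relations). Without KI 2 and KO 1, the 2 libraries farthest from the median of Grin2a, r was 0.832. For Grin2b r was 0.861 and rho 0.727 (adjusted p = 0.00417), and r was 0.553 without the same 2 libraries. For Grin1 r was 0.667 and rho 0.413 (adjusted p = 0.0360), and the relation rested on KO 1 and KO_WT 1, without which r was 0.288. The relations of the other 3 genes did not pass, with r = 0.526 for Grin2c, -0.271 for Grin2d and -0.302 for Grin3a, whose own model is over 10 kb (12275 bases). Both Grin2a and Grin2b span over 400 kb of the genome (428 and 460.3 kb), and with the 479 genes spanning at least 300 kb r was 0.936 for Grin2a and 0.889 for Grin2b.

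When the median of the long models was a term in the edgeR model, the coefficient of Grin2a over its whole range among the libraries was 2.39 on the log2 scale (SE 0.35, adjusted p = 0.0364), and 39 of 17441 genes were called for that term (0.224%). The coefficient of Grin2b was 1.05 (SE 0.21, adjusted p = 0.0725) and did not pass. The median of the long models was itself lower in every KO library than in every KO_WT library. It was -0.22, -0.06 and 0.03 in KO 1 to 3, against 0.06, 0.07 and 0.08 in KO_WT 1 to 3. The term and the genotype therefore cannot be told apart in KO over KO_WT. With that term the log2 fold change in KO over KO_WT was 0.03 for Grin2a and -0.01 for Grin2b. In KI over KI_WT it was 0.21 for Grin2a and 0.26 for Grin2b. The fold changes of Grin2a in the 2 lines were thus on the other side of 0 from those of the model without the term.

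**Figure D3:**
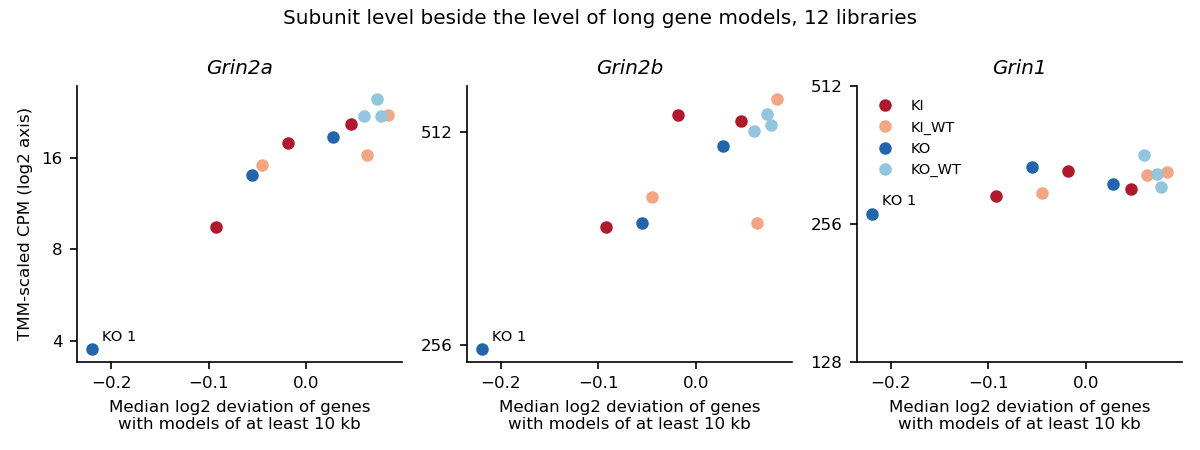
TMM-scaled CPM on a log2 axis of Grin2a, Grin2b and Grin1 against the median log2 deviation of 829 genes with gene models of at least 10 kb, with 1 point per library coloured by group. KO 1 lies at the far left at -0.22, and Grin2a follows the long models over the whole range (r = 0.948).

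The spread of Grin2a and Grin2b among libraries of the same group was high for their level. The pooled within-group SD of log2 CPM was 0.70 for Grin2a, above 99.4% of the 2345 genes of like level (within 0.5 on the log2 scale), whose median SD was 0.14. For Grin2b it was 0.32, above 96.9% of 289 genes of like level with a median of 0.13. The other 4 genes were within the ordinary range, from the 37.7th percentile for Grin2c to the 67.4th for Grin2d. The pore subunits of AMPA receptors, which carry fast excitation at the same synapses, lay between the 20.3rd percentile for Gria2 and the 83.9th for Gria1. Over the 12 libraries the highest level of Grin2a was 6.70 times the lowest, and that of Grin2b 2.26 times. The same ratio was 1.35 for Grin1, 1.25 for Grin2c, 1.55 for Grin2d and 1.58 for Grin3a.

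Grin2c (ENSMUSG00000020734; chr11:115249169-115267243, minus strand), known for its expression in cerebellar granule cells, thalamus and astrocytes, was the least variable of the 6 genes. Its level was 44.1, 39.3 and 39.3 CPM in KI 1 to 3, against 38.5, 43.1 and 45.3 CPM in KI_WT 1 to 3. In the knockout line it was 36.6, 36.6 and 41.6 CPM in KO 1 to 3, against 45.7, 41.0 and 42.7 CPM in KO_WT 1 to 3. The groups overlapped in both lines, in the knockout line through KO 3 alone. The log2 fold change was -0.05 in KI over KI_WT (95% interval -0.24 to 0.14, adjusted p = 0.930) and -0.17 in KO over KO_WT (-0.36 to 0.02, adjusted p = 0.682).

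Libraries were also set apart by Y-linked transcripts, a split looked at after Y-linked genes were found among those most like Grin2c, so that it is no independent support for what follows. The summed level of 4 Y-linked genes was 0.0285 to 0.120 CPM in 5 libraries (KI 2, KI 3, KI_WT 1, KO 1 and KO 2) and 185 to 234 CPM in the other 7. Grin2c lay between 36.6 and 39.3 CPM in those 5 libraries (median 38.5) and between 41.0 and 45.7 CPM in the other 7 (median 43.1), without overlap. The other 5 subunit genes overlapped, and of all 17441 tested genes 33 did not (0.189%), 15 of them lower in the 5 libraries, Grin2c included. Few genes would be without overlap under a random split of 5 against 7 libraries as well. The small share is therefore not by itself a sign of a relation. The 5 libraries include 2 of 3 from KO and none from KO_WT. With Y-linked expression as a term in the edgeR model the coefficient of Grin2c over the range of the libraries was 0.19 (SE 0.061). It did not pass after adjustment over all genes (adjusted p = 0.99998), and 6 genes did (0.0344%). With that term the log2 fold change of Grin2c was 0.02 in KI over KI_WT and -0.06 in KO over KO_WT.

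**Figure D4:**
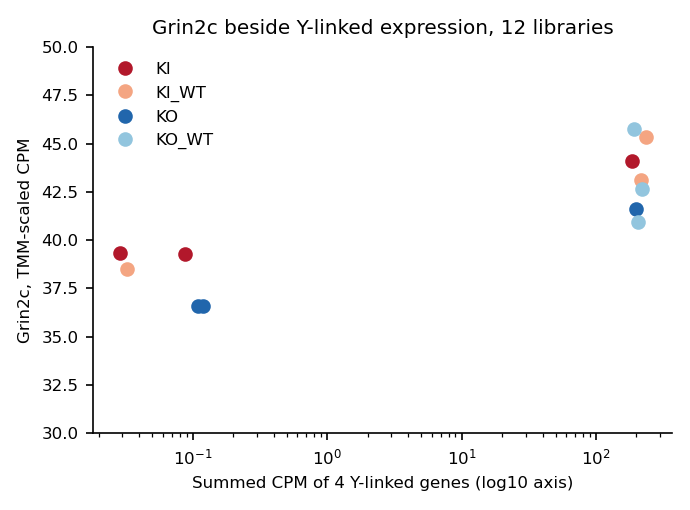
TMM-scaled CPM of Grin2c, on an axis from 30 to 50, against the summed CPM of 4 Y-linked genes on a log10 axis, with 1 point per library coloured by group. The 5 libraries under 1 CPM of Y-linked transcripts have 36.6 to 39.3 CPM of Grin2c, and the other 7 have 41.0 to 45.7 CPM.

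Grin2d (ENSMUSG00000002771; chr7:45831883-45878378, minus strand) encodes GluN2D, which in the adult forebrain is found mainly in interneurons. Its level was 13.9, 12.6 and 10.02 CPM in KI 1 to 3, against 9.96, 10.03 and 12.2 CPM in KI_WT 1 to 3. In the knockout line it was 9.999, 13.5 and 10.9 CPM in KO 1 to 3, against 10.05, 8.98 and 9.90 CPM in KO_WT 1 to 3. The groups overlapped in both lines, in the knockout line only between KO 1 and KO_WT 1. The log2 fold changes were 0.18 in KI over KI_WT (95% interval -0.14 to 0.51, adjusted p = 0.825) and 0.25 in KO over KO_WT (-0.07 to 0.57, adjusted p = 0.6998).

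Grin3a (ENSMUSG00000039579; chr4:49661611-49845744, minus strand) encodes GluN3A, a glycine-binding subunit that is most abundant early after birth. Its level was 53.6, 51.6 and 48.1 CPM in KI 1 to 3, against 39.6, 44.8 and 47.9 CPM in KI_WT 1 to 3. All 3 KI libraries lay above the 3 KI_WT libraries, KI 3 by a narrow margin, and it was the 1 subunit gene of 6 without overlap in this comparison, where 12.2% of all genes had none and 6.32% had none with KI above. The log2 fold change of 0.21 (SE 0.11), with a 95% interval of -0.03 to 0.45, did not pass the test (adjusted p = 0.730). In the knockout line the level was 46.5, 62.6 and 49.2 CPM in KO 1 to 3, against 47.6, 45.2 and 48.1 CPM in KO_WT 1 to 3. These groups overlapped, KO 2 was the highest of all 12 libraries, and the log2 fold change of 0.17 (adjusted p = 0.713) was 0.03 without KO 2. Markers of neighbouring tissue differed between KI and KI_WT as well. The 10 thalamus markers summed to 310.3 to 464 CPM in KI, against 172 to 217 CPM in KI_WT, and all 10 had a higher mean, with a median log2 fold change of 1.05. Means were lower for 9 of 9 olfactory bulb markers (median -1.69) and higher for 9 of 10 choroid plexus markers (0.37), with overlapping sums. Oligodendrocyte precursor markers summed to 357 to 379 CPM in KI, against 269 to 344 CPM in KI_WT, with 7 of 8 means higher. The correlation of Grin3a with thalamus markers over the 12 libraries did not pass (permutation test, r = 0.485, adjusted p = 0.423). With terms for thalamus, olfactory bulb and choroid plexus markers the log2 fold change of Grin3a was 0.18 (adjusted p = 0.883). Since the thalamus markers did not overlap between KI and KI_WT, that term and the genotype cannot be told apart here.

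The direct comparisons of the mutants and of the wild types called none of the 6 genes either. In KI over KO 0 of 6 were called against 1 of all genes (0.00573%), 0 of 6 had an unadjusted p under 0.05 (5.43% of all genes), and 0 of 6 were without overlap (10.2% of all genes). The log2 fold changes of KI over KO were 0.40 for Grin2a (SE 0.43) and 0.37 for Grin2b (SE 0.22), and between -0.05 and 0.10 for the other 4. Without KO 1 that of Grin2a was -0.03 and that of Grin2b 0.15. In KI_WT over KO_WT 0 of 6 were called against 0 of all genes (0%), 0 of 6 had an unadjusted p under 0.05 (1.96% of all genes), and 0 of 6 were without overlap (7.31% of all genes). The wild types differed by -0.36 on the log2 scale for Grin2a (SE 0.43) and -0.21 for Grin2b (SE 0.22), and by -0.09 to 0.15 for the other 4.

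The difference between the effects in the 2 lines was tested as a contrast of its own, and 0 of 6 genes were called for it against 1 of all genes (0.00573%). The KI effect minus the KO effect was 0.77 for Grin2a (SE 0.61, adjusted p = 0.923) and 0.57 for Grin2b (SE 0.31, adjusted p = 0.918). That of Grin2a was 0.34 without KO 1 and 1.22 without KO 3, and that of Grin2b 0.36 without KO 1. For the other 4 genes it lay between -0.06 and 0.12. An unadjusted p under 0.05 was reached by 0 of 6, and by 5.26% of all genes.

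Relative to gene length, Grin1 was the highest of the 6 in every library and Grin2b came second. Over the 12 libraries the RPKM was 32.7 ± 2.27 for Grin1 and 18.5 ± 3.64 for Grin2b (mean ± SD, n = 12). It was 8.16 ± 0.564 for Grin2c, 3.98 ± 0.527 for Grin3a, 3.25 ± 1.09 for Grin2a and 1.88 ± 0.315 for Grin2d. The order of Grin1, Grin2b, Grin2c and Grin3a held in 12 of 12 libraries, with a ratio of neighbours of at least 1.40. Below them Grin3a and Grin2a did not separate, Grin3a being above Grin2a in 7 of 12 libraries, whereas in KO_WT the mean of Grin2a (4.25) was above that of Grin3a (3.74). Grin2a was above Grin2d in 10 of 12 libraries. The seventh gene of the family, Grin3b, held 4 to 13 counts per library and was not tested.

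The place of Grin2a in this order depends on its gene model. Dividing counts by RPKM gave a length of 5296 bases for Grin2a in the authors' table, 29.5% of the 17933 exonic bases that GENCODE M21 annotates. For Grin1, Grin2c and Grin3a the lengths were those of the annotation (9700, 5037 and 12275 bases), for Grin2b 24773 of 24842 bases, and for Grin2d 88.0% of 6658 bases. With the counts divided by the longest annotated coding transcript in place of these lengths, Grin2d ranked above Grin2a, which came last, with the other 4 in the same order. Reads outside a model of that length would not be in the counts, so the CPM of Grin2a cannot be read as a measure of the whole annotated transcript.

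Among the 4 GluN2 genes on the RPKM scale, Grin2b made up 51.3% to 63.03% of the summed RPKM and Grin2c 20.9% to 36.6%. The share of Grin2a was between 3.57% in KO 1 and 13.1% in KO_WT 2, and that of Grin2d between 4.22% and 8.58%. These shares use the lengths implied by the deposited RPKM, and with the longest coding transcripts the share of Grin2a was 1.28% to 5.01% (median 3.97%), under a median of 6.30% for Grin2d. Differences between libraries in the log2 ratio of Grin2a to Grin2b on the RPKM scale depend neither on library scaling nor on the lengths used as divisors. The relation to long gene models need not cancel in the ratio, since its coefficient was 2.39 for Grin2a and 1.05 for Grin2b. This ratio was -3.85, -2.54 and -2.48 in KO 1 to 3, against -2.33, -2.21 and -2.34 in KO_WT 1 to 3. All KO libraries were below all KO_WT libraries, with KO 1 far below and the other 2 close to the KO_WT range. The means were -2.95 ± 0.773 in KO and -2.29 ± 0.0740 in KO_WT (SD, n = 3 each), a difference of -0.66 (two-sided exact permutation test, p = 0.1, the smallest that 3 against 3 libraries allow). The difference was -0.22 without KO 1 and -0.90 without KO 3.

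In the knock-in line the log2 ratio of Grin2a to Grin2b was -2.68, -3.08 and -2.45 in KI 1 to 3, against -2.46, -2.55 and -2.31 in KI_WT 1 to 3. The groups overlapped, and the means differed by -0.30 (two-sided exact permutation test, p = 0.3). The difference was -0.12 without KI 2 and -0.44 without KI 3. The summed RPKM of the 4 GluN2 genes was 27.3 ± 6.45 in KO and 35.0 ± 0.662 in KO_WT (SD, n = 3 each), without overlap (exact permutation p = 0.1). It was 33.4 ± 4.26 in KI and 31.6 ± 3.52 in KI_WT, with overlap (exact permutation p = 0.8). Divided by Grin1, the sum was 0.847 ± 0.169 in KO and 1.05 ± 0.0833 in KO_WT, and the libraries overlapped (exact permutation p = 0.2). The size of this ratio depends on the lengths used. Grin1 was scaled by 9700 bases while its longest coding transcript has 4276, so a value near 1 does not mean equal numbers of transcripts.

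**Figure D5:**
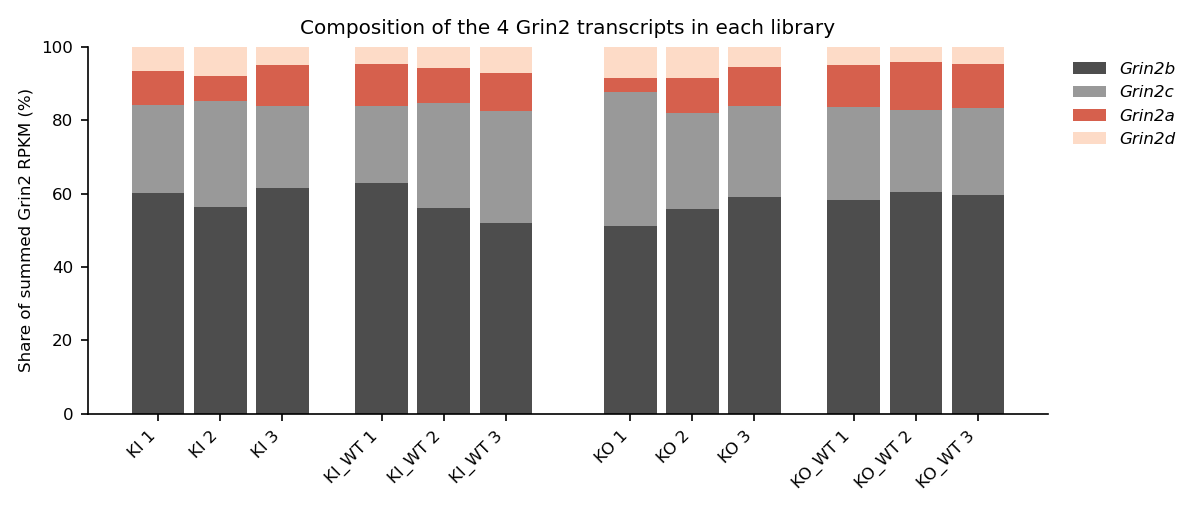
Share of Grin2b, Grin2c, Grin2a and Grin2d in the summed RPKM of the 4 genes, in percent, with 1 bar per library. Grin2b is the largest share in all 12 libraries (51.3% to 63.03%), and the Grin2a share is smallest in KO 1 (3.57%), with gene lengths as implied by the deposited table.

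Across the 12 libraries 3 of the 15 pairs of subunit genes were correlated after adjustment over the pairs (permutation test of Pearson's r on log2 CPM, which all genes of a library share in scaling). Grin2a and Grin2b varied together with r = 0.933 and rho = 0.881 (adjusted p = 3.0e-04), and with r = 0.860 without KI 2 and KO 1. Grin2d and Grin3a did so with r = 0.767 and rho = 0.720 (adjusted p = 0.0112), and with r = 0.549 without KI 1 and KO 2. Grin1 and Grin2a had r = 0.723 and rho = 0.455 (adjusted p = 0.0423), a relation that rests on KO 1 and KO_WT 1, since r was 0.366 without them. The first 2 pairs also passed for deviations from the group means and on the RPKM scale. For the deviations the p-values are likely too small, since the permutation ignored that group means had been removed.

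The genes whose levels were most like those of each subunit gene were ranked by Pearson's r over the 12 libraries among 14602 genes with a mean of at least 1 CPM, as a description without a test. For Grin1 they were Prrt2 (r = 0.987), Cdc42bpb (0.944) and Hcfc1 (0.943). For Grin2a they were Tnr, an extracellular matrix protein of perineuronal nets (r = 0.990), Arhgef12 (0.981) and Huwe1 (0.978). For Grin2b they were Trpc5 (r = 0.974), Nf1 (0.966) and Ank2 (0.965). Grin2d was most like Ccdc97 (r = 0.935), Fam185a (0.924) and Uqcrc1 (0.910), and Grin3a most like Ret (r = 0.940), Pigo (0.926) and Timp2 (0.913). Without the 2 libraries farthest from the median of the subunit gene, r was 0.974 for Prrt2, 0.930 for Tnr, 0.931 for Trpc5, 0.865 for Ccdc97 and 0.790 for Ret. Grin2c was most like Zfp710 (r = 0.873, and 0.789 without KO 1 and KO 2). It was followed by the Y-linked genes Ddx3y and Eif2s3y, whose libraries fall into separate clusters, so that no r is given for them.

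Proteins that hold, move or modify NMDA receptors were followed through 46 genes in lists of 18 scaffold, 9 trafficking and 19 signalling proteins, all of them tested. Of these 46 genes 0 were called in KI over KI_WT and 0 in KO over KO_WT by edgeR. In KO over KO_WT 42 of 46 had a lower mean, with a median log2 fold change of -0.17, whereas 48% of all genes had a lower mean, with a median of 0.01. All 18 scaffold genes had a lower mean (median -0.25), 18 of 19 signalling genes (median -0.13) and 6 of 9 trafficking genes (median -0.08). An unadjusted p under 0.05 was found for 7 of 46 genes with KO lower and 1 with KO higher, and for 7.22% of all genes in either direction. Without KO 1 there were 38 of 46 with a lower mean, and without KO_WT 1 there were 36. With the term for long gene models there were 27 of 46 (median -0.05), and with terms for regional markers 33. As stated above, the long-model term cannot be told apart from the genotype in KO over KO_WT. The wild types of the 2 lines differed in the same direction. In KI_WT over KO_WT 40 of 46 partner genes had a lower mean (median -0.07), where the median of all genes was 0.0002. The part of the KO_WT libraries in the count of 42 was not tested.

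Partner genes had lower means in KO more often than all genes of like length, in each range of gene length. In KO over KO_WT 9 of 9 partner genes with models of at least 10 kb had a lower mean (median -0.23), as did 80.2% of all such genes (median -0.14). With models of 5 to 10 kb the counts were 19 of 20 (median -0.19), against 65% of all such genes (median -0.06). With models under 5 kb they were 14 of 17 (median -0.10), against 39.9% of all such genes (median 0.04). The part of gene length in these means was not tested. In KI over KI_WT 30 of 46 partner genes had a lower mean (median -0.05; 51.3% of all genes), and 20 of 46 did so on the scale of log2(RPKM + 0.1), where 37.5% of all genes did.

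The partner genes with the smallest p in KO over KO_WT were Dlg2 and Prkca among the lower ones. Dlg2, the scaffold protein PSD-93, averaged 264 ± 62.3 CPM in KO and 393 ± 35.3 CPM in KO_WT (SD, n = 3 each), without overlap. Its log2 fold change was -0.57 (SE 0.16), and its adjusted p from edgeR was 0.678. Prkca, a protein kinase C, averaged 184 ± 36.3 CPM in KO and 268 ± 28.0 CPM in KO_WT, and the log2 difference was -0.54 (SE 0.16, adjusted p = 0.678). Among the higher ones were Cdk5, a kinase that phosphorylates GluN2 subunits, at 0.14 on the log2 scale (SE 0.064, adjusted p = 0.678), and Ap2m1, a subunit of the clathrin adaptor, with 0.11 (SE 0.075). None of them passed the threshold.

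In KI over KI_WT Cdk5 averaged 102 ± 5.99 CPM in KI and 92.7 ± 2.77 CPM in KI_WT (SD, n = 3 each), a log2 difference of 0.14 (SE 0.064, adjusted p = 0.719). Ptpn5, the phosphatase STEP, differed by 0.25 (SE 0.13). Lin7a, an adaptor for receptor transport, differed by -0.33 (SE 0.15), and Dlgap1, a scaffold that links PSD-95 to SHANK proteins, by -0.22 (SE 0.11). None of the 4 genes passed the test. For Cdk5, Lin7a and Dlgap1 all KI libraries lay on one side of all KI_WT libraries, as for 5 of the 46 partner genes in all and 12.2% of all genes. KI and KO are each set against their own wild types, so the 2 values of Cdk5 share no library. They do share the same estimate of the spread, Cdk5 was named for its small p in each comparison, and neither value passed.

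Of 78 relations between the 6 subunit genes and 13 marker lists of cell types or regions, 0 passed after adjustment (permutation test of r), 14 had an unadjusted p under 0.05, and the smallest adjusted p was 0.0690. That value was shared by the relations of Grin2b to astrocyte markers (r = 0.769, rho = 0.734) and to oligodendrocyte precursor markers (r = 0.753, rho = 0.566), of Grin2a to astrocyte markers (r = 0.697, rho = 0.853) and of Grin2c to brain endothelium markers (r = 0.753, rho = 0.741). Without the 2 libraries farthest from the median of the subunit gene, r was 0.731, 0.839, 0.791 and 0.498 for these relations in the same order. For deviations from the group means 7 of 78 passed, each with an adjusted p of 0.0460. They were Grin2a with excitatory neuron (r = 0.756) and striatum markers (r = -0.762), Grin2b with excitatory neuron (r = 0.822), astrocyte (r = 0.818), oligodendrocyte precursor (r = 0.766) and striatum markers (r = -0.794), and Grin3a with oligodendrocyte markers (r = -0.775). The permutation treated the deviations as freely exchangeable, although each group's own mean had been removed. These p-values are therefore likely too small, and the 7 relations are given as a description.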

How the data were processed

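Poly(A) RNA of 12 cortices was sequenced. The authors demultiplexed with bcl2fastq 2.17 and used STAR 2.5.0c, Cufflinks 2.2.1 and the build GRCm38, per the submitters' processing notes; all RNA had an integrity number over 8, per the labels. The read counter, annotation and strand setting are not given in the sources used here. The deposited raw counts are whole numbers for 41388 genes. The deposited RPKM values were these counts scaled by library total and a gene length, to within 0.0790% over 8292 genes with at least 500 counts. Columns were matched to titles, and each title carries its own animal number, so replicates are separate animals.

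The count model was a quasi-likelihood fit by edgeR 4.0.16 (R 4.3.3) after filterByExpr and TMM, with 1 mean per group over all 12 libraries, a biological coefficient of variation of 15.7% and 8 residual degrees of freedom, and p-values were adjusted by Benjamini-Hochberg over 17441 genes. The model was tested on simulated data. Permutation tests (Python 3.11.15, scipy 1.17.1) were exact for 3 against 3 libraries, and used 100000 resamples for correlations. Alternatives were RLE size factors, 2 other count filters, DESeq2 1.42.0, limma 3.58.1 voom, limma on the log2 of RPKM plus 0.1 or 1 (genes over 0.5 RPKM in 3 or more libraries), the compared groups alone, terms for regional markers, animal number range or Y-linked expression, and each library left out. A term for long gene models was added after seeing the data. Named were all 6 subunit genes, for each the 3 genes with the highest r, and from the partner lists the genes past the threshold or else the 2 higher and 2 lower genes with the smallest p; AMPA receptor genes were named as a comparison of spread. The members and lists were chosen with earlier results of these data known. Coordinates and sequences are from GENCODE M21.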

Additional observations from a re-analysis of the deposited data

How the results depend on the processing

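In all 5 comparisons 0 of 6 subunit genes were called under every other setting and with each library left out. Of 354 fold changes under other settings 333 kept their sign, and the other 21 did not pass the test with either sign. In KI over KI_WT these log2 values were, for Grin2b, -0.0556 with voom and -0.226 with regional terms, and for Grin2c 0.00531 with voom, 0.00377 and 0.00314 on the RPKM scales and 0.0163 with the Y-linked term. They were 0.0127 and 0.0123 for Grin1 on the RPKM scales, and 0.0139 for Grin1 and 0.2103 for Grin2a with the long-model term. In KO over KO_WT they were 0.0185 for Grin1 and 0.0296 for Grin2a with the long-model term. In KI over KO those of Grin1 were -0.0547 with the animal number term and -0.0347 with the long-model term. In KI_WT over KO_WT they were 0.0393 for Grin1, 0.169 for Grin2a and 0.0927 for Grin2c with regional terms, and 0.0297 for Grin2c with the Y-linked term. In the difference of effects they were -0.0217 and -0.00458 for Grin1 with regional and long-model terms, and 0.00372 for Grin2d with the animal number term. The cause was not tested. With a library left out 339 of 360 fold changes kept their sign. Where one did not, the log2 range in KI over KI_WT was -0.0845 to 0.00161 for Grin1, -0.371 to 0.117 for Grin2a, -0.0262 to 0.275 for Grin2b and -0.113 to 0.00886 for Grin2c. In KI over KO it was -0.0621 to 0.101 for Grin1, -0.0254 to 0.864 for Grin2a, -0.00501 to 0.2296 for Grin2d and -0.121 to 0.102 for Grin3a. In KI_WT over KO_WT it was -0.106 to 0.00921 for Grin1 and -0.0759 to 0.0468 for Grin2c. In the difference of effects it was -0.00205 to 0.161 for Grin1, -0.158 to 0.0768 for Grin2d and -0.0324 to 0.1902 for Grin3a. Genes called over the whole table in KI over KI_WT numbered 2 with DESeq2 and 1 in the compared groups alone. In KO over KO_WT they numbered 8 with DESeq2, and 1 to 6 with a library left out (6 without KO 3). In KI over KO they numbered 12 with DESeq2, 2 without a count filter and 0 in the compared groups alone. In KI_WT over KO_WT they numbered 1 with DESeq2 and 1 in the compared groups alone. For the difference of effects they numbered 2 with DESeq2, 0 with regional terms, 0 with the Y-linked term, and 0 to 1 with a library left out. Partner genes with a lower mean in KO over KO_WT numbered 27 with the long-model term and 36 to 43 with a library left out. The correlation of Grin1 and Grin2a did not pass for deviations from group means (0.674) or on the RPKM scale (0.566). Uncalled correlations changed sign for deviations from group means between Grin2a and Grin2d (0.144), Grin2a and Grin3a (0.2199) and Grin2c and Grin3a (0.295), and for the last pair on the RPKM scale (0.0333). Of 78 relations to marker lists 7 passed for deviations from group means, where p-values are likely too small as stated above, and 20 changed sign. No paired analysis was possible because each title carries its own animal number, and replicate numbers follow only the order of the records. At this depth counting error is mostly small beside the spread between animals, and the lowest count of a subunit gene was 137. An exception is Grin2d in KO_WT, with 319, 299 and 329 counts. The exact Poisson 95% interval of the lowest of these, 266 to 335, covers the others.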
